A study of Mus musculus with 36 samples.

Results

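Naive pluripotency is the state of the cells of the early inner cell mass, and in culture it is held by a small network of transcription factors. Of the 25965 genes measured, the 9 described here are the zinc finger factors Klf2, Klf4 and Klf5, the nuclear receptors Esrrb and Nr5a2, the CP2 family factor Tfcp2l1, the T-box factor Tbx3, the PR domain factor Prdm14 and Zfp42, also known as Rex1. They were picked by gene symbol as the recognised factors of this network, and all 9 were measured and passed the filter on low values. The cells were Xmas mouse embryonic stem cells (mESCs), female C57/Bl6 lines in which one X chromosome carries a GFP reporter and the other an mCherry reporter at Hprt. They were weaned over 3 days from medium with 2i and LIF into DME HiHi, a serum medium without LIF, and RNA was sequenced daily, days 0 to 8 included. The 36 libraries come 4 to a day, 1 from each of the cultures X14 double, X14 single, X18 double and X18 single. X14 and X18 are lines. The labels do not explain double and single, which are used here only as names. Libraries of 1 culture on different days share that culture, and nothing says that the days of a culture were grown separately, so p-values measure only the spread between these libraries.

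The name 2i stands for inhibitors of MEK and of GSK3. In textbook terms, blocking MEK keeps out the signal of FGF and ERK that drives cells from the naive state, blocking GSK3 relieves targets such as Esrrb from repression by Tcf7l1, and LIF acts through STAT3 on Klf4 and Tfcp2l1. The factors bind the genes of one another, together with Pou5f1, Sox2 and Nanog, and are lost when cells leave the naive state, while Pou5f1 is kept for longer. Zfp42 is a classical marker of the naive cell, and Prdm14 holds down FGF receptor signalling and DNA methylation.

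Promoter sequence from RefSeq on build GRCm38.p6 was at hand for 6 of the 9 genes in 8 windows of 300 bases, of Klf2, Klf4, Zfp42 and Tfcp2l1 and of 2 starts each for Esrrb and Nr5a2. Klf5, Tbx3 and Prdm14 were not matched. The 3 windows printed are those of Klf4, Zfp42 and Esrrb. From day 3 to day 4 Klf4 had the largest log2 fall of the 9 and Zfp42 the smallest. Esrrb is a nuclear receptor between them. All read 5′ to 3′ along the gene, and capitals mark matches on either strand to 7 short motifs.
Klf4, chr4:55532426-55532725, minus strand: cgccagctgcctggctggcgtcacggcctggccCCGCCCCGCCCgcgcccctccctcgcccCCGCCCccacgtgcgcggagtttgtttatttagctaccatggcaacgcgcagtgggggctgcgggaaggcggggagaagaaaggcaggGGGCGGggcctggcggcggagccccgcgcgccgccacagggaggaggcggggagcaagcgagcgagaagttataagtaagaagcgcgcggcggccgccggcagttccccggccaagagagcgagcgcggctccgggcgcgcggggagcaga
Zfp42, chr8:43306960-43307259, minus strand: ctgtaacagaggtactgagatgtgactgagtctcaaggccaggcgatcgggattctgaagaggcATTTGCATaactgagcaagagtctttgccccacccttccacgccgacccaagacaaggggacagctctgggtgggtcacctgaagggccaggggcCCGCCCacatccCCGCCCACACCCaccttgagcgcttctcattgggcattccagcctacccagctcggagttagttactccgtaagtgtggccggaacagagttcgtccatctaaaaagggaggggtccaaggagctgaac
Esrrb, chr12:86360867-86361166, plus strand: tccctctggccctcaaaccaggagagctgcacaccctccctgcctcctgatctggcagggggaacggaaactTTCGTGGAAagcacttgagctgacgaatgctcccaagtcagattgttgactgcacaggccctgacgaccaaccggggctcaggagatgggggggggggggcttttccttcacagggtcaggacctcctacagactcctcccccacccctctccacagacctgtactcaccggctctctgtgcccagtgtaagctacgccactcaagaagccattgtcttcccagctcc
The octamer bound by Pou5f1, ATTTGCAT, stood in the Zfp42 window alone of the 8, starting at base 65, and in 1.74% of all 32851 promoter windows. Zfp42 also held the KLF motif CCACACCC at base 176, found in 3.56% of all windows, and it overlaps by 2 bases a GC box at base 172. The GC box CCGCCC, bound by SP and KLF proteins, lay in the windows of Klf2, Klf4 and Zfp42, and in 35.7% of all windows. Esrrb held the STAT motif TTCNNNGAA at base 73, as did 8.3% of all windows. The motif CAAGGTCA of the ESRR and NR5A receptors (1.56% of all windows), the TCF motif CTTTGAT (3.73%) and the YY1 motif AAGATGGC (2.75%) were in none of the 8. These matches describe letters only and were not tested against the expression values.

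Libraries held between 612740 and 2445826 reads in genes, with a median of 1297944. Levels are given as RPM, reads scaled to the depth of the library, and 3 reads, taken as the floor of detection, corresponded to 1.04 to 3.90 RPM. Where 4 values of a day follow each other they stand in the order X14 double, X14 single, X18 double and X18 single. The 2 day 0 libraries of X14 went against their labels. The balance of X-linked to autosomal expression, a median log2 difference centred on each gene's mean, was -0.72 in X14 double and 0.63 in X14 single on day 0. On days 1 to 4 the 8 double libraries lay between 0.38 and 0.71 and the 8 single ones between -0.69 and -0.35. Among the members Tfcp2l1 was at 1182 RPM in X14 double on day 0 and at 1048 in X14 single on day 1, against 381 and 399 in the other X14 library of each day. The log2 difference of double from single in X14 was -0.18 and -0.15 for Klf2 on these days, and in X18 that of Tfcp2l1 also changed sign, from -0.44 to 0.37. The counts of factors called lower than on day 0 are therefore also given without these 2 libraries, and loss-day gaps also without day 0. Percentages of the start, levels of days 0 and 1, and the core factors and gene lists are given only with all libraries.

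All 9 factors were lower than on day 0 on every day from day 4 to day 8, and none was called on days 1 to 3. A gene was called when its limma adjusted p over 14612 genes was under 0.05 and it had changed by at least 1 on the log2 scale. On days 1, 2 and 3 the share of all tested genes called lower was 0.0342%, 0.876% and 3.17%. On these days 0, 2 and 2 of the members had an unadjusted p under 0.05, and voom on the recovered reads called none of them, with 1, 3 and 6 under that limit. The pair on days 2 and 3 was Zfp42, which pointed down, and Klf5, which pointed up. From day 4 the 9 of 9 stood against 6.40% of all genes lower on that day. For days 5, 6, 7 and 8 the share was 11.0%, 11.0%, 11.6% and 11.1%. The median log2 change of the 9 was -3.95 on day 4 and -3.07 on day 8, where that of all genes tested was 0.12 and 0.23. With the X14 libraries of day 0 left out, the median of the 9 was -3.06 and -2.85. Without the X14 libraries of day 0, 7 of 9 were called on day 4 (not Klf2 and Klf5), 9 on day 5, 8 on days 6 and 7 (not Klf5) and 7 on day 8 (not Klf5 and Tbx3). In bulk libraries fewer cells with a factor and less of its RNA per cell cannot be told apart.

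The fall was concentrated between day 3 and day 4. In this step 7 of the 9 were called lower, all but Klf2 and Zfp42, against 1.70% of all genes. Fitted with the 2 days alone 6 were called, without Prdm14. From day 4 to day 5 Klf2 and Nr5a2 fell further (5.78% of all genes lower) and Tbx3 rose (4.83% higher). In the other steps no member was called by limma or by voom, namely the steps that end on days 2, 3, 6, 7 and 8, in which 0.0342%, 0.185%, 9.72%, 0.890% and 0.438% of all genes were called in either direction. The members with an unadjusted p under 0.05 in these 5 steps numbered 0, 2, 1, 0 and 1 in limma and 1, 3, 0, 0 and 1 in voom.

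**Figure D1:**
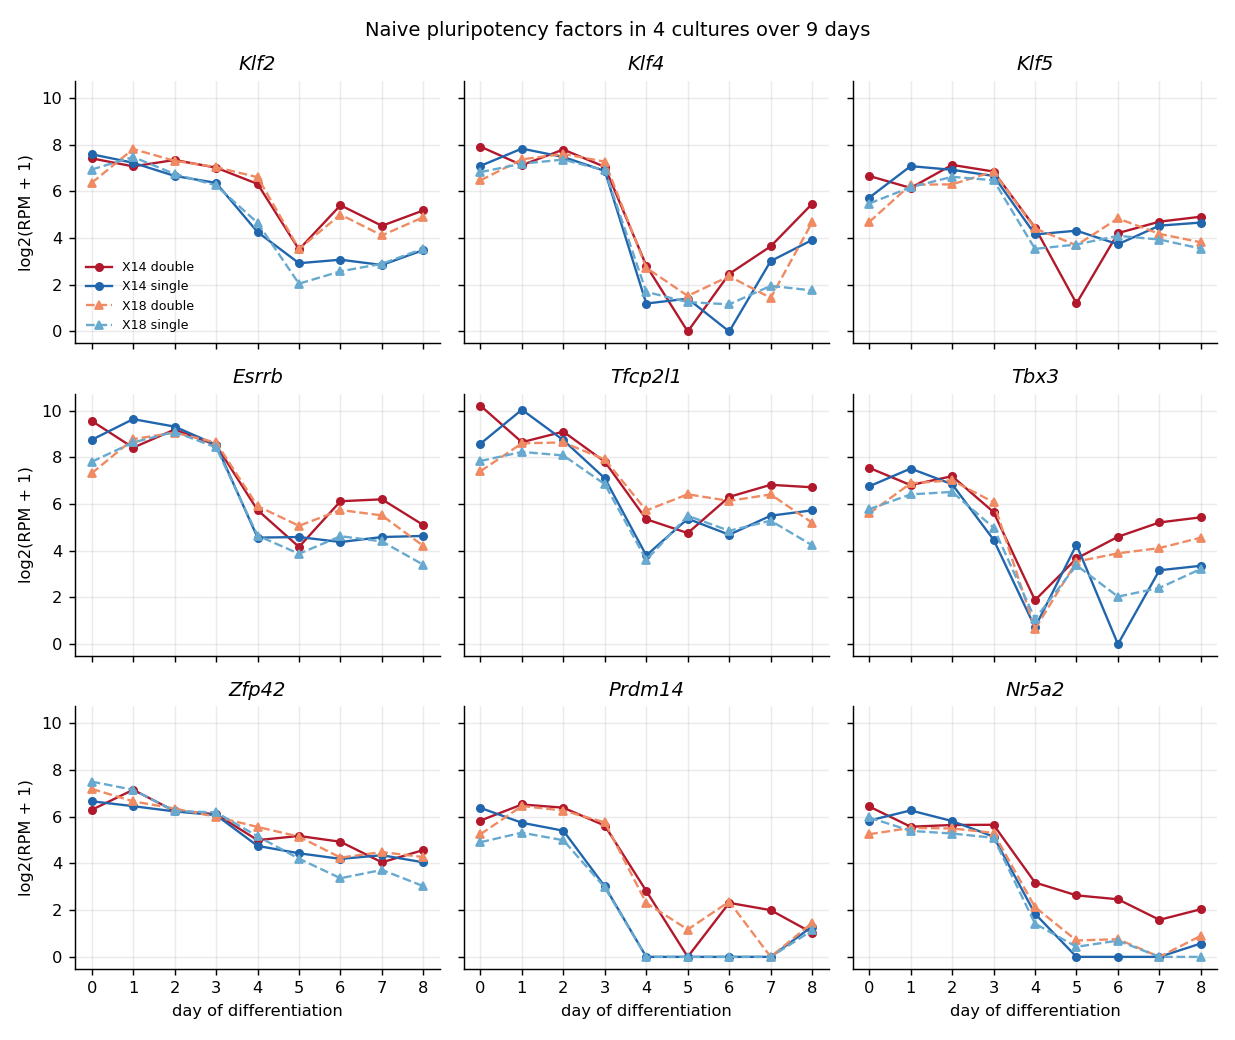
Level of each factor by day of differentiation, as log2(RPM + 1), with a line for each of the 4 cultures. All 9 fall around days 3 to 5. Klf4 and Tbx3 drop steeply to few reads and come back in part, Zfp42 slopes down over the whole course, and the double libraries (red) lie above the single ones (blue) for Klf2 from day 4.

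Klf4 (chr4:55527143-55532466, minus strand), a target of LIF and STAT3, went from full to nearly no expression in 1 day. Its levels were 240, 135, 87.4 and 112 RPM on day 0 and 131, 116, 153 and 118 on day 3. On day 4 they were 6.05, 1.29, 5.63 and 2.24, which is 9, 2, 10 and 4 reads, and the groups were far apart. From day 3 to day 4 Klf4 fell by 5.35 ± 0.61 (SE) on the log2 scale, with an adjusted p of 2.0e-07, and was lower in 4 of 4 cultures.

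Klf2 (chr8:72319033-72321656, plus strand), a KLF factor sustained by MEK inhibition, left later and at different times in the cultures. It stood at 128, 81.1, 130 and 75.1 RPM on day 3 and at 78.6, 18.1, 96.3 and 24.1 on day 4. Of the day 4 values only that of X18 double was still inside the range of day 0, where the 4 values were 169, 191, 81.2 and 121, and both single libraries were far below it. On day 5 all 4 were low, at 10.4, 6.58, 10.6 and 3.13 RPM. The log2 change from day 0 to day 4, -1.65 ± 0.56 (adjusted p = 0.0287), was not called without replicate 2 (X14 single), without replicate 4 (X18 single) or without the X14 libraries of day 0, with values of -1.06, -1.42 and -1.22. From day 4 to day 5 Klf2 fell by 2.63 ± 0.56 (adjusted p = 0.00129).

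Klf5 (chr14:99298691-99313405, plus strand), which acts in part redundantly with Klf2 and Klf4, did not decline before day 4. Its day means were 55.0 ± 32 RPM (SD, n = 4) on day 0, 109 ± 26.6 on day 2 and 104 ± 12.5 on day 3, so that it was first higher than at the start in all 4 cultures. This early difference of 1.13 ± 0.49 on day 2 was not called (adjusted p = 0.154), and was called without the X14 libraries of day 0. On day 4 Klf5 was at 20.8, 16.8, 20.3 and 10.6 RPM, and from day 3 it fell by 2.64 ± 0.49 (adjusted p = 4.8e-04). It then stayed between 10.6 and 29.1 RPM in all but 1 library, X14 double on day 5, the shallowest, with 1 read. On day 8 Klf5 had fallen by 1.45 ± 0.49 against day 0 (adjusted p = 0.015) and its range again overlapped that of day 0. The day 8 call was lost without replicate 4 (X18 single, -1.26) and without the X14 libraries of day 0 (-0.89), and the day 4 call without replicate 2 or 4 and without those libraries (-1.53, -1.39 and -0.98).

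Esrrb (chr12:86361117-86521628, plus strand), an orphan receptor released by GSK3 inhibition, was not called lower up to day 3. It held 367, 370, 396 and 342 RPM on day 3 with hardly any spread, and 52.4, 22.6, 59.1 and 24.1 on day 4. The 2 days do not overlap, and Esrrb fell by 3.35 ± 0.45 on the log2 scale (adjusted p = 4.2e-06). A remnant of 9.52 to 72.5 RPM was left in every library from day 4 on, in no library fewer than 8 reads.

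Nr5a2 (chr1:136843584-136960427, minus strand), which activates the Pou5f1 promoter, ended close to nothing. On day 3 it was at 49.3, 34.4, 38.6 and 33.2 RPM and on day 4 at 8.07, 2.59, 3.38 and 1.68. Nr5a2 fell by 3.54 ± 0.63 in this step (adjusted p = 3.1e-04). From day 5 on, X14 double kept 4, 8, 4 and 6 reads on the 4 days while the other 3 cultures held 0 or 1 read each. Its further fall from day 4 to day 5 was called only narrowly (-1.79 ± 0.63, adjusted p = 0.0494), and the call was lost with both other scalings, in voom and without replicate 2, 3 or 4, where the adjusted p was 0.18, 0.255 and 0.191.

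Tfcp2l1 (chr1:118627945-118685167, plus strand), a STAT3 target, kept a remnant in every library after its fall. Its means for days 0, 2, 3 and 4 were 490 ± 470, 409 ± 114, 178 ± 62.5 and 28.9 ± 20.1 RPM. The large spread of day 0 comes from 1 library, at 1182 RPM against 168 to 381 in the others. From day 3 to day 4 it fell by 2.86 ± 0.56 (adjusted p = 9.2e-04). After that no day mean was below 48.7 RPM. X14 double was at 26 RPM on day 5 and X18 single at 44.1, and on day 8 the 4 libraries had 104, 52, 35.7 and 17.8, so the order of these cultures had turned.

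Tbx3 (chr5:119670669-119684724, plus strand), a T-box repressor that sustains self-renewal, was nearly absent on day 4. It was at 49.3, 21.2, 66.3 and 30.7 RPM on day 3 and at 4, 1, 1 and 2 reads on day 4, or 2.69, 0.647, 0.563 and 1.12 RPM. On day 5 it was back at 11.7, 18.1, 10.6 and 9.38 RPM, so the values of day 4 lay below those of the days before and after in every culture. X14 single had no read on day 6. From day 3 it fell by 5.22 ± 0.69 (adjusted p = 3.0e-06), and to day 5 it rose by 3.56 ± 0.69 (adjusted p = 4.4e-04), values that rest on the 1 to 4 reads of day 4. An antisense transcript, Gm2301, overlaps Tbx3, and since the strand used for counting is not given, reads of both cannot be told apart.

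Prdm14 (chr1:13113457-13127163, minus strand) was lost on different days in the libraries labelled double and single. On day 2 it was at 82.5, 41.2, 75.7 and 30.8 RPM and on day 3 at 48.0, 7.07, 53.0 and 6.83. On day 4 the 4 libraries held 9, 0, 7 and 0 reads. By day 5 no library had more than 2 reads, which puts its level at least 22.0-fold below the mean of day 0 with every library set to the floor of 3 reads, and on day 8 the same bound was 22.2-fold. Between these days the double libraries had 7 and 6 reads on day 6, and X14 double 6 on day 7.

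Zfp42 (chr8:43295068-43307009, minus strand) declined slowly and never disappeared. Its day means were 126 ± 45.9 RPM on day 0, 117 ± 28.2, 75.9 ± 3.08, 67.1 ± 3.72 and 34.4 ± 8.63 on days 1 to 4, and 26.8 ± 9.19, 18.5 ± 8.27, 17.1 ± 4.12 and 16 ± 6.60 on days 5 to 8. The 4 libraries of day 3 already lay below all 4 of day 0, at a log2 difference of -0.83 ± 0.31 that was not called (adjusted p = 0.0713). Without the X14 libraries of day 0 it was called on days 2 and 3, and without replicate 1 (X14 double) on day 3. Between day 4 and day 8 it fell by another 1.20 ± 0.31 (adjusted p = 0.00321), which without replicate 4 (X18 single) was -0.84 and under the minimum change. Every day 8 library still held 6 to 44 reads.

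To order the losses, a loss day was read for each culture as the time, interpolated between days, at which a factor fell to 50% of its start, the mean log2 value of days 0 and 1, and stayed below on the next day. All 36 loss days could be read, and they fell between 1.89 and 4.16. By their means the order was Prdm14 (2.73 ± 0.55 days, SD, n = 4 cultures), Tbx3 (2.75 ± 0.36), Tfcp2l1 (2.76 ± 0.50), Zfp42 (2.94 ± 0.70), Klf4 (3.16 ± 0.09), Nr5a2 (3.16 ± 0.12), Esrrb (3.29 ± 0.21), Klf2 (3.51 ± 0.68) and Klf5 (3.65 ± 0.21). RNA was taken once a day, so differences of a fraction of a day rest on the interpolation. No pair of neighbours in this order kept it in all 4 cultures. The first place passed between Prdm14, Tbx3 and Tfcp2l1 with the start, fall or scaling used, and the mean of Tfcp2l1 moved between 2.05 and 4.15 days. Of the 36 pairs of factors 17 kept the same order in all 4 cultures, 7 in 3 and 10 in 2, and 2 ran against the order of the means in 3 cultures. Klf5 was lost after 7 of the other 8 factors in every culture, and after Klf2 in 2 of 4. Esrrb came 0.14 ± 0.12 days after Klf4, in that order in 4 of 4 cultures. With the start at the highest of days 0 to 2 their means turned, to 3.03 days for Esrrb and 3.07 for Klf4. A paired exact test over 4 cultures cannot reach 0.05, so these orders are described without one.

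**Figure D2:**
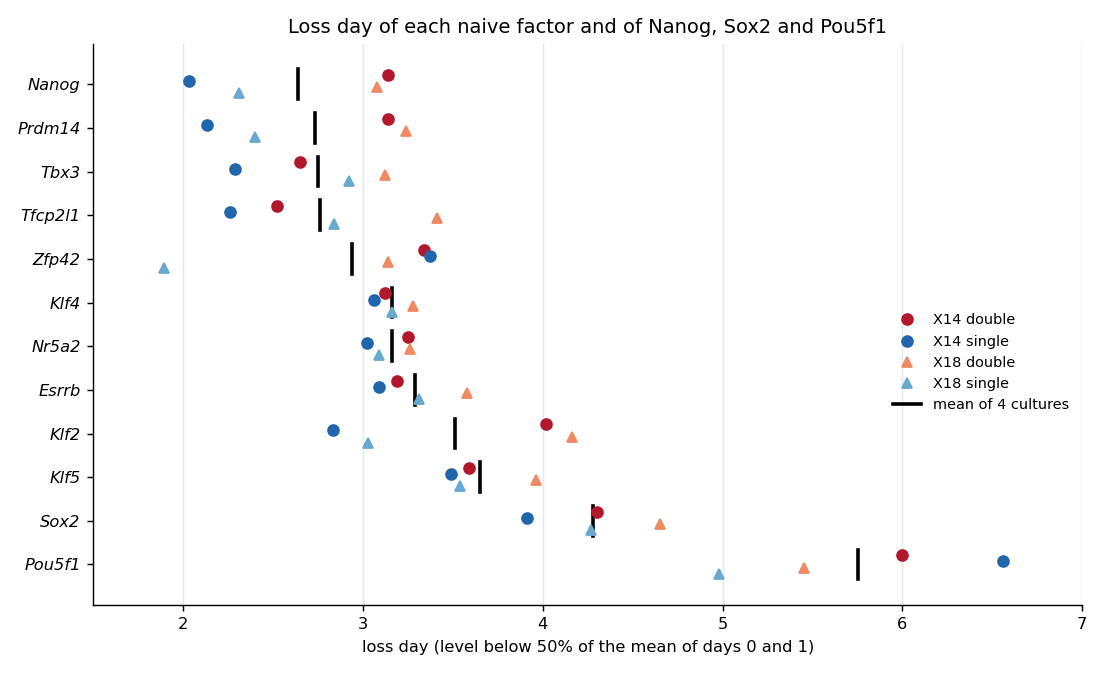
Loss day of the 9 factors, with Nanog, Sox2 and Pou5f1 for comparison, sorted by the mean. The x axis is the day of differentiation at which the level passed 50% of its start, coloured points are the 4 cultures and the black bar is their mean. Klf4, Nr5a2 and Esrrb form tight groups of points, while Prdm14 and Klf2 split into an early single pair and a later double pair.

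The tightness differed between factors. The 4 loss days of Klf4 were 3.12, 3.06, 3.28 and 3.16, and those of Nr5a2 3.25, 3.02, 3.26 and 3.09. A steep fall between day 3 and day 4 places the interpolated loss day early in that step, so this closeness rests largely on the interpolation. On day 4 itself double was above single, for Klf4 by 2.22 in X14 and 1.33 in X18 on the log2 scale. For Nr5a2 the difference was 1.64 and 1.01. These values rest on 12 reads or fewer per library. Those of Prdm14 were 3.14, 2.13, 3.24 and 2.40 and those of Klf2 were 4.02, 2.83, 4.16 and 3.03. For both genes the single cultures lost the factor earlier in both lines, by 1.01 and 0.84 days for Prdm14 and by 1.19 and 1.14 days for Klf2. For Klf4, Nr5a2, Esrrb, Klf5 and Tbx3 the same gap was between 0.06 and 0.41 days, for Tfcp2l1 it was 0.26 and 0.57, and for Zfp42 -0.04 and 1.25. With 2 cultures against 2 an exact test cannot go below 0.333, and the gaps are a description. A start taken from day 1 alone leaves out day 0. The gaps were then 0.77 and 0.77 days for Prdm14, 1.02 and 0.96 for Klf2 and 0.20 and 0.07 for Klf4. Those of Esrrb, Nr5a2, Klf5 and Tbx3 in X14 widened to 0.52, 0.62, 0.47 and 0.76. In X14 the gap of Tfcp2l1 became the widest of all factors, above that of Klf2, and that of Zfp42 was below 0. With this start Prdm14 and Klf2 therefore did not stand apart from the other factors in X14. In X18 their gaps were still the widest, with that of Zfp42 just under that of Prdm14. With day 0 alone as the start, which rests on the 2 doubtful libraries, the X14 gap was below 0 for Klf4, Esrrb, Klf5 and Tbx3 (-0.09, -0.25, -0.27 and -0.03) and for Tfcp2l1 (-2.07), and it stayed above 0 for Klf2 and Prdm14 (1.63 and 1.26). Zfp42 in X18 single had the earliest of all loss days, 1.89, against 3.14 to 3.37 in the other cultures.

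The interpolated time from 50% to 25% of the start differed as well. RNA was taken once a day, so no time within a day was measured. Where both levels were passed between the same 2 days, this time only restates the size of the log2 fall in that step. From 50% to 25% of the start Klf4 took 0.19 days on average, Nr5a2 0.29, Esrrb 0.31, Tbx3 0.32 and Prdm14 0.36. Klf2 took 0.91 days, a mean raised by X14 double, which reached 25% for good at 6.15 days. That culture was at 6.94% on day 5 and back at 27.5% on day 6. The other cultures reached 25% between 3.44 and 4.48 days. Zfp42 took 1.98, the longest of the 8 with a value in every culture. Tfcp2l1 took 1.39 days, a mean set by X18 double, which reached 25% for good at 7.33 days while the other cultures did so between 2.87 and 3.24. In X18 double Klf5 never reached 25% of its start.

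**Figure D3:**
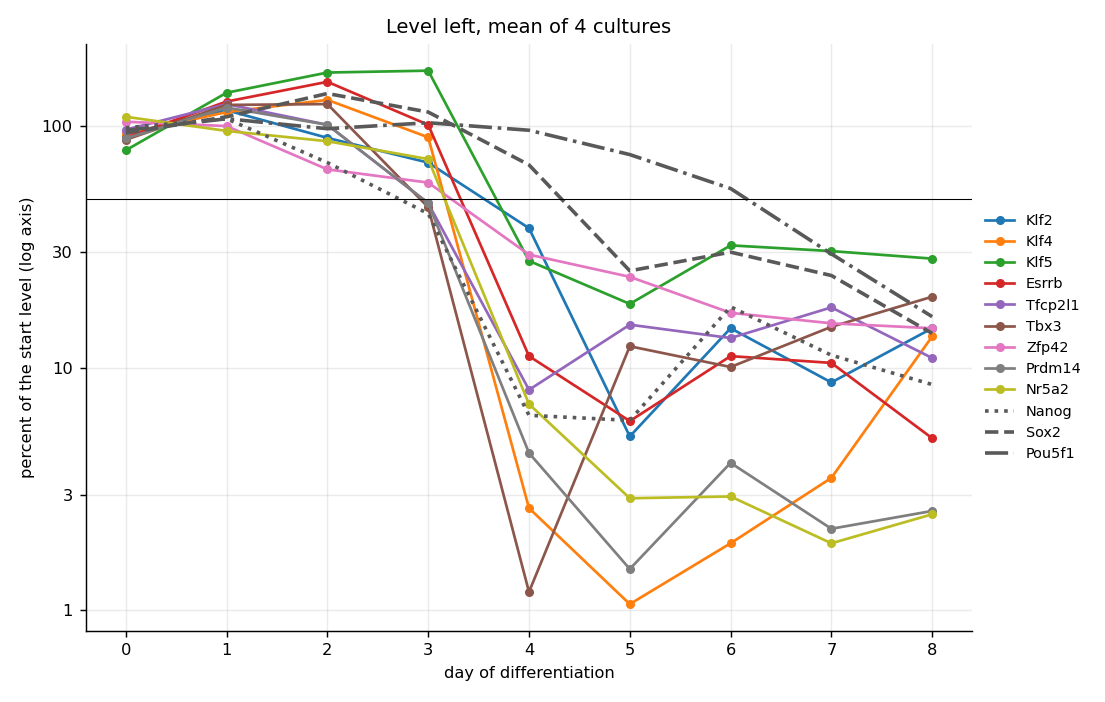
Level left as a percent of the start (mean of days 0 and 1 on the log2 scale), mean of 4 cultures, on a log axis against the day of differentiation, for the 9 factors in colour and for Nanog, Sox2 and Pou5f1 in grey. The horizontal line is 50%. Libraries without a read enter at the deposited floor of 0.9 read. On day 4 the 9 factors spread from 1.19% (Tbx3) to 37.8% (Klf2) and Pou5f1 is at 95.9%.

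The low point and the rest left at the end also differed. On day 4 the cultures had kept 1.19 ± 0.69% of the start for Tbx3, 2.64 ± 1.75% for Klf4 and 4.46 ± 3.83% for Prdm14, but 27.7 ± 12.8% for Klf5, 29.4 ± 6.86% for Zfp42 and 37.8 ± 29.0% for Klf2. By day 8 Klf5 stood highest at 28.3 ± 6.55%, followed by Tbx3 at 19.7 ± 12.1%, Klf2 at 14.6 ± 9.12%, Zfp42 at 14.6 ± 7.31%, Klf4 at 13.5 ± 10.3% and Tfcp2l1 at 11.0 ± 4.11%. Esrrb (5.13 ± 1.74%), Prdm14 (2.57 ± 0.92%) and Nr5a2 (2.49 ± 1.76%) were the most depleted. For Prdm14 all 4 and for Nr5a2 3 of the 4 libraries of day 8 were at or under 3 reads, so depth limits these percentages.

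Klf4 and Tbx3 came back in part. Between day 4 and day 8 both were called higher, as were 15.7% of all genes, while Zfp42 and Nr5a2 were called lower, as were 9.01%. With the culture as a block Klf2 was called lower as well. From day 5 to day 8 only Klf4 of the 9 was called higher, against 12.4% of all genes. Klf4 was at 0, 1.65, 1.87 and 1.39 RPM on day 5, at 11.5, 7.07, 1.71 and 2.87 on day 7 and at 43.1, 14.1, 24.4 and 2.38 on day 8. The sizes rest on low starts, 0, 2, 3 and 4 reads of Klf4 on day 5. The return was uneven, with 83, 29 and 28 reads in 3 cultures on day 8 and 2 reads in X18 single. Klf4 rose by 3.19 ± 0.61 from day 5 to day 8 (adjusted p = 1.8e-04) and by 2.12 ± 0.61 from day 4 (adjusted p = 0.00675), and the latter was not called without replicate 2 (X14 single, 1.68, adjusted p = 0.0998). Tbx3 reached 42.1, 9.23, 22.6 and 8.33 RPM on day 8, a rise of 4.01 ± 0.69 over day 4 (adjusted p = 2.6e-05). Day 8 against day 0 was called for Tbx3 (-2.36 ± 0.69), and not without the X14 libraries of day 0 (-1.62, adjusted p = 0.107). The call on Nr5a2 between days 4 and 8 (-1.60 ± 0.63, adjusted p = 0.0498) was lost without any of replicates 2, 3 and 4, and that on Zfp42 without replicate 4 (X18 single). With the same block Klf2 was also called higher on day 8 than on day 5, which makes 2 of 9, its unblocked value being 1.40 ± 0.56 (adjusted p = 0.0657).

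Several of the 9 are also used outside the naive cell, such as Klf4 and Klf5 in epithelium and Esrrb and Klf5 in trophoblast, and markers of other cell types moved over the same days. The 9 trophoblast markers summed to between 30.8 and 101 RPM on day 4 and to between 462 and 940 on day 8, when 7 of the 9 had a mean of at least 10 RPM and Krt7 led at 364 ± 136. Those under 10 RPM on day 8 were Cdx2 (7.48 ± 4.93) and Elf5 (1.06 ± 0.894). The 8 epithelium markers summed to between 1116 and 1316 RPM on day 4 and 3789 and 6661 on day 8, and 5 of the 8 had a mean of at least 10 RPM on both days. Cdh1 (764 ± 120 RPM) and Epcam (364 ± 34.7) made up most of the sum on day 4. Krt5, Krt14 and Tfap2a stayed under 10 RPM. Extraembryonic endoderm markers (32.2 to 86.5 RPM in sum on day 8, 5 of 12 without a read), mesoderm markers (92.3 to 265, 1 of 8 without a read) and fibroblast markers (74.8 to 112, 2 of 9 without a read) summed to at most 13.9 RPM on day 0. Neural markers summed to 89.4 to 150 RPM on day 0 and 64.2 to 109 on day 8. Primordial germ cell markers summed to 493 to 844 RPM on day 0, 94.5 to 190 on day 4 and 206 to 348 on day 8. Of these 8 markers 1 was called higher between days 4 and 8 (Tfap2c) and 1 lower (Dazl). Tfap2c went from 18.2 ± 17.7 to 166 ± 74.5 RPM and is on the trophoblast list too, as Hand1 and Eomes are on the trophoblast and mesoderm lists. ES cell markers went from 5127 to 9797 RPM on day 0 down to 819 to 2128 on day 8. The part of any of these cells in the return of Klf4 and Tbx3 was not tested.

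The libraries labelled double kept more of the naive factors than those labelled single. Over days 1 to 8, in 32 libraries with day and line as covariates, Prdm14 was higher in double by 1.62 ± 0.25 on the log2 scale (adjusted p = 1.4e-05), Klf2 by 1.31 ± 0.17 (1.0e-06) and Tbx3 by 1.11 ± 0.28 (0.00411). These 3 of 9 stand against 2.93% of all genes called higher in double. Klf4, Esrrb, Tfcp2l1, Zfp42 and Nr5a2 differed by 0.42 to 0.83 in the same direction, with adjusted p between 0.00442 and 0.0316 but under the minimum change. Klf5 differed by -0.05 ± 0.24 (adjusted p = 0.917). In the deposited values of days 3 to 8, double was above single in 12 of 12 pairs of the same day and line for Klf2. The count was 11 of 12 for Prdm14, Tfcp2l1 and Nr5a2, and 10 of 12 for each of the other 5. Over days 1 to 8 the counts ran from 11 of 16 for Esrrb to 15 of 16 for Klf2. Those of Prdm14 and Nr5a2 include pairs with 0 reads in both libraries, which differ by depth alone. They are X14 on day 5 and X18 on day 7 for Prdm14, and X18 on day 7 for Nr5a2. The Tbx3 call was lost within either line, at 1.38 in X14 (adjusted p = 0.0766) and 0.85 in X18 (adjusted p = 0.118), and in the voom fit of the recovered reads only Prdm14 passed both limits, Klf2 being at 0.98 and Tbx3 at 0.71. Tfcp2l1 differed by 1.07 within X18 and was called there.

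Whether the difference changed with time was tested over 2 spans. A test of a change between days 1 and 2 and days 3 to 5 called 0 of 9 members (0.479% of all genes), with 4 at an unadjusted p under 0.05 and Prdm14 called by voom. The windows that follow were picked after the values were seen. On day 3 only Prdm14 of the 9 was called (2.04% of all genes), at 48.0 and 53.0 RPM in double and 7.07 and 6.83 in single, a log2 difference of 2.86 ± 0.51 (adjusted p = 0.00158), which was not called without replicate 2, 3 or 4. On day 4 Klf2 (2.06 ± 0.29), Tfcp2l1 (1.91 ± 0.52) and Prdm14 were called, against 2.27% of all genes. For Prdm14 both single libraries then had no read, and double was at least 2.76-fold above their floor. The day 4 call on Tfcp2l1, at 39.7 and 51.8 RPM against 12.9 and 11.2, was lost with the culture as a block (1.67, adjusted p = 0.101), in voom and without replicate 2, 3 or 4, and that on Prdm14 without replicate 2.

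By days 6 to 8, 6 of the 9 were called higher in double, against 5.0% of all genes. They were Tbx3 (2.38 ± 0.34), Klf2 (1.92 ± 0.17), Klf4 (1.45 ± 0.37), Tfcp2l1 (1.24 ± 0.30), Esrrb (1.18 ± 0.22) and Prdm14, whose single libraries held 0 to 3 reads on these days and whose size is therefore not given. Without replicate 1 (X14 double) or replicate 4 (X18 single) 3 were called (Klf2, Esrrb and Tbx3), and Prdm14 was lost without any 1 of the 4 replicates. With the culture as a block 5 were called, Tfcp2l1 and Prdm14 being lost and Nr5a2 gained. Klf2 on day 6 was at 41.3 and 31.1 RPM in double and 7.41 and 4.96 in single, and its ranges did not overlap on any of days 6, 7 and 8. Tbx3 on day 8 was at 42.1 and 22.6 RPM in double and at 9.23 and 8.33 in single. Against days 1 and 2 the difference had grown for Tbx3 by 2.23 ± 0.55 (adjusted p = 0.0131), for Klf2 by 1.56 ± 0.27 (7.8e-04) and for Esrrb by 1.50 ± 0.35 (0.00911), and 4.05% of all genes were called in that direction. None of the 3 was called without replicate 1 (X14 double), where the values were 1.79, 1.19 and 1.10. Without replicate 2 (X14 single) Tbx3 at 1.79 and Esrrb at 1.40 were not called either, and without replicate 4 (X18 single) Esrrb at 1.59 was not.

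**Figure D4:**
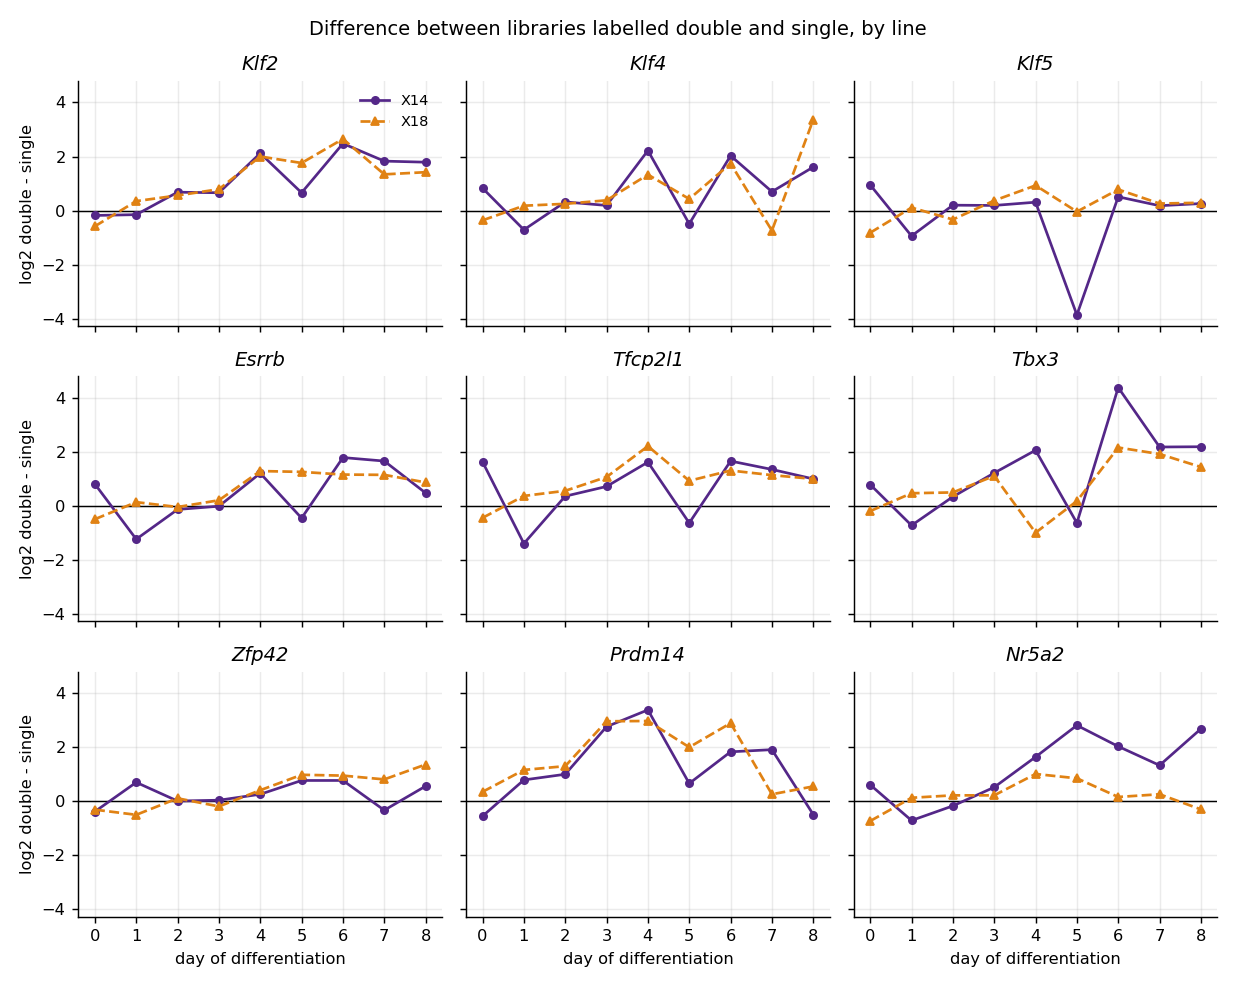
Log2 difference between the double and the single library of the same day, on the y axis, against the day of differentiation, for X14 (purple) and X18 (orange). Klf2 is above 0 in both lines from day 2 on and Prdm14 from day 1 to day 7. The Prdm14 points of X14 on day 5 and X18 on day 7 compare 0 reads with 0 reads and reflect depth alone. Klf5 in X14 drops to -3.86 on day 5, where the double library had 1 read, and the first 2 points of X14 swing in opposite directions for Esrrb, Tfcp2l1 and Tbx3.

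Other measures moved with the label. The balance of X-linked to autosomal expression differed by 0.78 between double and single over days 1 to 8, with no overlap between the 16 and 16 libraries, but in the last days the groups came closer, to between 0.00 and 0.19 in double and between -0.26 and -0.21 in single. Trophoblast markers averaged 927 RPM in double and 490 in single on day 8, epithelium markers 6056 and 3938, and primordial germ cell markers 305 and 223. The other lists were lower in double on that day, ES cell markers at 943 and 1969 RPM, extraembryonic endoderm at 37.1 and 63.5, mesoderm at 119 and 183, neural at 74.5 and 86.5 and fibroblast markers at 83.4 and 98.4. Of 10 genes of the ERK response 6 were lower in double over days 1 to 8 (Etv4, Dusp6, Dusp4, Spry2, Spry4 and Spred1) and none was higher, where 1.61% of all genes were lower. The part of each of these in the difference of the naive factors was not tested.

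Line made less difference. Between X18 and X14 over days 1 to 8 limma called 0 of the 9, and 0.0137% of all genes either way. At an unadjusted p under 0.05 the count was 1, Nr5a2 at -0.88 ± 0.26 (adjusted p = 0.383), and voom called none with 2 under that limit.

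Per length, in RPKM (RPM per kilobase of exon), the factors differed several-fold at the start. Means of days 0 and 1 were 84.1 ± 5.19 RPKM for Klf2 (SD over 4 cultures), 72.8 ± 26.5 for Esrrb, 67.4 ± 16 for Zfp42, 55.2 ± 30.2 for Tfcp2l1, 51.1 ± 11.0 for Klf4 and 41.5 ± 11.9 for Klf5. The lower group was Prdm14 at 23.0 ± 6.80, Tbx3 at 20.7 ± 7.71 and Nr5a2 at 14.6 ± 3.19. Neighbours in this order overlap between cultures, Klf5 and Prdm14 excepted, at 29.5 to 53.9 against 13.2 to 28.6. On day 8 Klf2 (11.5 ± 6.89) and Klf5 (11.2 ± 5.12) led and Prdm14 (0.53 ± 0.12) and Nr5a2 (0.29 ± 0.36) were last. The exon length behind the values was 1721 bp for Klf5 and 3836 bp for Nr5a2, where GENCODE M21 merges 5201 and 5899 bp, so the place of these 2 genes depends on the annotation.

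Of the core factors that work with the 9, Nanog shared the early fall of the naive factors and the other 2 did not. Nanog was lost at 2.64 ± 0.55 days, with gaps of 1.11 and 0.76 days between double and single, and fell by 4.20 ± 0.46 by day 4 (adjusted p = 1.8e-08). Its mean was 117 ± 32.7 RPM on day 5 and 341 ± 28.9 on day 6. On day 8 Nanog was lower in double, at 3.78% of its start in X14 and 3.02% in X18. The single cultures were then at 11.5% and 15.9%. Sox2 passed 50% at 4.28 ± 0.30 days and Pou5f1 at 5.75 ± 0.68, each later than all 9 naive factors by its mean. Pou5f1 on day 4 differed from day 0 by 0.01 ± 0.28 (adjusted p = 0.984), and on day 8 it had fallen by 2.70 ± 0.28.

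The formative and primed factors, which mark the exit from the naive state, were mostly up on day 4. Of 12 tested, 11 were called higher on that day, when 12.2% of all genes were higher, and 6 were higher and 4 lower on day 8 (23.9% higher). For days 0, 3, 4 and 8 the means of Otx2 were 0.578 ± 0.876, 92.9 ± 17.7, 270 ± 27.4 and 44.3 ± 29.1 RPM and those of Pou3f1 1.79 ± 1.23, 30.3 ± 26.9, 209 ± 92.1 and 41.9 ± 18.1. Of 9 factors known to oppose the naive network 5 were higher on day 4 and none lower, led by Id1 at 0.329 ± 0.412 and 95.4 ± 43.1 RPM on days 0 and 4, and Tcf15 at 4.78 ± 1.37 and 24.9 ± 3.43. On day 8, 2 were higher and 2 lower.

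Readouts of the 3 signals held by the naive medium are to be read against 12.2% of all genes higher and 6.40% lower on day 4, and 23.9% and 11.1% on day 8. Of 10 genes of the ERK response 8 were higher on day 4 and none lower, with Spry4 at 0 reads in all day 0 libraries and 60.0 ± 34.4 RPM on day 4 and Dusp4 at 0.463 ± 0.926 and 32.1 ± 21.5. Of 7 genes of the LIF and STAT3 response only Socs3, a feedback inhibitor, was lower on day 4, at 54.5 ± 31.7 RPM on day 0, 175 ± 30.3 on day 3 and 15.6 ± 7.68 on day 4, and it was at 50.7 ± 12.1 on day 8, when Jak1 was higher. Of 9 tested genes of the GSK3 and beta-catenin response 2 were higher on day 4 (Lef1 and Tcf7) and 2 lower (Cdx1 and Notum). Notum, a secreted Wnt inhibitor, went from 37.4 ± 14.3 RPM on day 0 to 1.54 ± 0.88 on day 4 and 6.33 ± 1.63 on day 8, and Cdx1 from 25.2 ± 16.3 to 0 and 3.06 ± 1.38. Both were called higher again between days 4 and 8. Among 8 other genes of the network, which include the 3 core factors, 3 were lower on day 4 and 5 on day 8, with Nr0b1 at 114 ± 45.0, 10.4 ± 2.16 and 0.477 ± 0.555 RPM on days 0, 4 and 8 and Gbx2 at 19.0 ± 7.25, 7.33 ± 3.59 and 0.251 ± 0.290.

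Of 12 other KLF genes tested 2 were higher and none lower on day 4, and 3 were higher and 1 lower on day 8, where the shares of all genes were 12.2% higher and 6.40% lower on day 4, 23.9% and 11.1% on day 8. Klf6 rose from 39.4 ± 5.76 RPM on day 0 to 71.6 ± 14.9 on day 4 and 302 ± 73.4 on day 8, a change of 2.92 ± 0.25 (adjusted p = 3.5e-11). Klf7 went from 1.83 ± 2.81 RPM to 25.7 ± 12.5 on day 4, and Klf13 was also higher on both days. Klf8 was the 1 lower on day 8, at 46.1 ± 9.49 and 16.1 ± 10.9 RPM. Klf17 had at most 0.947 RPM by mean on any day. Of the other ESRR and NR5A receptors only Esrra was tested, at 26.6 ± 4.11 RPM on day 0 and 25.2 ± 9.33 on day 8, while Esrrg and Nr5a1 had 0 reads in all 36 libraries.

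Of 5 other CP2 and grainyhead genes 2 were higher on day 4 and 1 on day 8, led by Grhl2, an epithelial regulator, from 7.04 ± 3.91 RPM to 67.2 ± 16.5 on day 4. Neither Yy1 nor Yy2, the relatives of Zfp42, was called on day 4 or day 8. Of 8 other T-box genes tested none was called on day 4 and 2 (T and Tbx20) were higher on day 8, with T, a mesoderm marker, at 75.5 ± 75.1 RPM. The share of all genes called higher was 12.2% on day 4 and 23.9% on day 8, so the T-box count of day 8 is near that share.

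**Figure D5:**
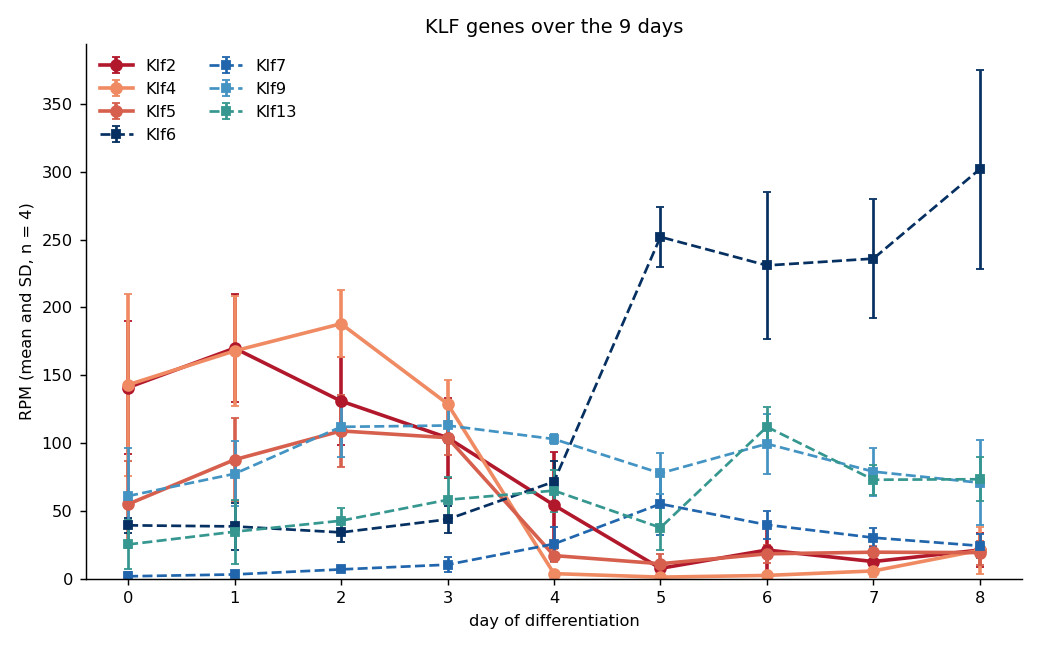
Level in RPM (mean and SD of 4 libraries) against the day of differentiation for the 3 KLF members in red and for Klf6, Klf7, Klf9 and Klf13 in blue and green. The means of Klf2, Klf4 and Klf5 are each below their day 0 mean from day 5 on, while Klf6 goes from 39.4 ± 5.76 RPM on day 0 to 302 ± 73.4 on day 8.

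Over the 36 libraries the 9 profiles were alike, with Pearson r on the log2 scale between 0.63 and 0.93 over the 36 pairs and a median of 0.85. These points share cultures and the common fall after day 3, so r describes the shape of the course only. Among the 9403 genes averaging 10 RPM or more the most similar were Notum, Jak3 and Alpl for Klf4 (0.95, 0.94 and 0.94), Calcoco2, Pdgfc and Prdm14 for Klf2 (0.93, 0.92 and 0.92) and Akap1, Fubp3 and Snx18 for Klf5 (0.92, 0.91 and 0.91). Esrrb was closest to Myst4, Dlgap3 and Rfx2 (0.96, 0.95 and 0.94) and Nr5a2 to Myo1f, Jam2 and Dlgap3 (0.95 each). For Tfcp2l1 they were Ulk1, Yes1 and Esrrb (0.93, 0.92 and 0.92), for Tbx3 Tfcp2l1, Ildr1 and Yes1 (0.89, 0.89 and 0.87), for Prdm14 Mreg, Mep1b and Calcoco2 (0.95 each) and for Zfp42 Mylpf, Fbxo15 and Prrc1 (0.94, 0.94 and 0.93).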

How the data were processed

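Per the study's methods, TruSeq RNA libraries were made and single-end reads were trimmed, aligned to mm10 with tophat or hisat2 (the submitters' processing notes name TopHat2 2.0.12), and quantified per gene in SeqMonk (annotation release and strand setting not given in the sources used here). The authors deposited log2 values. They behave as log2 RPKM, and 100% of genes resolved to whole reads (within 0.02 read) over 1 exon length per gene and 1 divisor per library. Genes without reads carry a floor of 0.9 read. RPM is the deposited value with the length undone. Floors, and bounds set from them, cover counting error only. Values after ± are an SE of the fit or an SD over libraries or cultures.

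Groups came from the labels. Genes at 1 RPM or more in at least 4 of 36 libraries (14612) were tested with limma 3.58.1 in R 4.3.3 on these log2 values, fitted by day, or with label, line and day over the 32 libraries of days 1 to 8. All tests were two-sided with Benjamini-Hochberg adjustment over all genes tested. The p-values measure the spread between these libraries. Library numbers name the cultures (line and label). Deviations from the day means of same-numbered libraries correlated across genes at a median of 0.156 on days 1 to 8, and those of different numbers at -0.0761, and the block fit adds the number as a term. Alternatives were other scalings (75th percentile, quantile), filters, a pseudocount of 1 RPM, voom on recovered reads, the block, single libraries left out, no minimum fold change, and other starts and falls for the loss day. The fit by day was tested on simulated counts of independent libraries with known changes on day 4. The label, line, window, block and voom fits were not simulated, nor were libraries that share a culture.

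The members and lists were chosen with earlier results of these data known. Named genes are the members, the listed genes, for each list the 2 that moved most among those called on day 4 or 8 with at least 10 RPM, the relatives of members, and the 3 genes most correlated with each member.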

Additional observations from a re-analysis of the deposited data

Results flagged for a closer look

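Of 81 groups of 4 libraries (9 factors on 9 days), 3 held a library far from the other 3 by Dixon's test on the log2 scale, where chance flags about 1 in 20. Klf5 on day 1 was at 134 RPM in X14 single and between 69.7 and 76.8 in the others. Zfp42 on day 2 was at 80.4 RPM in X18 double, only slightly above the 73.8 to 74.6 of the other 3 libraries. Prdm14 on day 7 was at 3 RPM (6 reads) in X14 double, and the other 3 libraries had no read.

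The difference between double and single was larger on days 6 to 8 than on days 1 and 2 for Tbx3 (by 2.23 on the log2 scale), Klf2 (by 1.56) and Esrrb (by 1.50), by the interaction test in limma over all genes. These windows were chosen after the values were seen, and none of the 3 was called without X14 double.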

How the results depend on the processing

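The counts of members called lower on days 4 to 8, 9 of 9, came to between 7 and 9 under each alternative run. Without the X14 libraries of day 0, 1 member (Zfp42) was called lower on day 2 and 1 on day 3, and leaving out replicates gave 0 to 1 on day 3. From day 4 to day 5 the count of 2 became 1 (Klf2) with both other scalings, without the filter, with log2(RPM + 1), in voom, without the X14 libraries of day 0 and with only the 2 days compared, and 1 to 2 without a replicate. Of 2 members higher on day 8 than on day 4, 1 (Tbx3) was left with only the 2 days compared, and 1 to 2 without a replicate. With the replicate block 2 in place of 1 were higher on day 8 than on day 5, and the block changed the call of no other count by over 1.5 times. Higher in double were 1 in voom and 8 with no minimum fold change, and voom gave 1 member for the planned change of that difference. Klf5 alone changed direction between double and single, to 0.04 in voom and 0.30 in X18 alone, and from -0.39 to 0.30 without a replicate. The median loss day was 3.16, moved to 3.60 with a fall of 2 on the log2 scale, and otherwise lay between 3.03 and 3.19. By its mean Klf5 was last in the order under each start and scaling tried except a fall of 2, where Zfp42 was last. The causes were not tested. Counts of 3 reads or fewer limit Prdm14 and Nr5a2 from day 5 on, Klf4 on days 5 and 6 and Tbx3 on day 4, and each day has 4 libraries of 2 lines.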
